A study of Mus musculus with 12 samples.

Results

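RNA levels were followed for 10 genes of the presomitic mesoderm and of Notch segmentation, chosen by name: Mesp1, Mesp2, Msgn1, Ripply2, Dll1, Dll3, Notch1, Lfng, Hes7 and Nrarp. The choice was made with earlier results of these data known. All 10 were found, among 54446 genes in the deposited table, each as a single row. Presomitic mesoderm is the unsegmented tissue that flanks the neural tube of the vertebrate embryo and buds off somites at a regular pace. In its cells the Notch pathway is switched on and off by a clock: a delta ligand on one cell activates a Notch receptor on its neighbour, the receptor's inner domain enters the nucleus and joins RBPJ, and the targets it turns on include repressors that shut the pathway down again. At the front of the tissue MESP2 sets the next boundary, and RIPPLY proteins then end its expression by acting on TBX6.

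The RNA came from E14, a mouse embryonic stem cell line, in 12 libraries that form 4 groups of 3. The group mESC holds undifferentiated cells grown over irradiated fibroblasts of mouse embryos, with serum and with LIF, the cytokine that holds them undifferentiated. The groups T+, SOX17+/T+ (double-positive) and SOX17+ hold differentiated progeny of these cells sorted by reporters for T (Brachyury), a transcription factor of the primitive streak and early mesoderm, and for SOX17, a transcription factor of endoderm. The comparisons between them address how the genes differ between cells on the mesodermal and the endodermal side. The labels do not give the reporter constructs, the clone, the length of differentiation or whether replicates are separate cultures, so that every p-value refers to the spread among these particular libraries, which may be technical.

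Levels are TPM (transcript abundance corrected for length and scaled to sum to 1000000 in every library) as the authors deposited them. Differences are given on the log2(TPM + 1) scale ± the standard error of a limma fit to all 12 libraries, a scale that understates changes of genes near or below 1 TPM. A gene is called at a Benjamini-Hochberg adjusted p under 0.05 over all 16097 tested genes, those with at least 1 TPM in at least 3 libraries. At least 2-fold means a difference of at least 1 on the log2(TPM + 1) scale, which is not a fold of TPM. Sequencing depth per library is unknown. T, by whose reporter cells were sorted, stood at 0.618 to 0.673 TPM in mESC, 92.1 to 158 in T+, 31.7 to 61.5 in SOX17+/T+ and 1.86 to 2.84 in SOX17+. Summed TPM of 7 streak and nascent mesoderm markers ranged from 266 to 335 in T+, 129 to 186 in SOX17+/T+, 42.3 to 59.2 in SOX17+ and 10.6 to 11.8 in mESC, and summed TPM of 7 definitive endoderm markers from 406 to 515, 1413 to 1435, 1815 to 1933 and 33.2 to 35.9 in the same order. Krt8 and Krt18 gave most of the endoderm sum (662 and 823 TPM in SOX17+). T and Fgf8 gave most of the streak sum in T+ (127 and 120). From T+ to SOX17+, 5 of the 7 endoderm markers were called higher and 1 lower. Of the 7 streak markers 1 was called higher and 5 lower, beside 25.4% and 29.0% of all genes. Among these 5 is Wnt3a, which reached 1 TPM only in T+ and so had to differ. Cxcr4 (65.1 TPM in T+, 37.2 in SOX17+) and Eomes (5.43 and 10.9) ran against their lists. T and Sox17 belong to these lists. In bulk RNA, fewer cells of a type and less RNA per cell cannot be told apart.

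All 10 genes had their highest level in T+, and every T+ library lay above every library of the other 3 groups for each of them, as it did for 9.55% of all tested genes. Ripply2 reached 1 TPM only in T+ and so had to differ, and it is left out of the counts of called members. Mesp1, Msgn1 and Hes7 passed the filter through T+ and SOX17+/T+, with 1 SOX17+ library also at 1 TPM for Mesp1, so that their calls against the lower groups are not free of the filter either. Against T+, 8 of the 9 were called lower in SOX17+/T+, where 15.8% of all tested genes were, and 9 of 9 in SOX17+, where 29.0% were. In SOX17+/T+ cells the mean TPM ranged from 21.5% of the T+ mean for Msgn1 to 78.3% for Nrarp, and in SOX17+ cells from 0.412% for Msgn1 to 40.8% for Nrarp. The groups below T+ were not ordered alike. Mesp1, Dll3 and Nrarp followed the order T+, SOX17+/T+, SOX17+, mESC. Msgn1, Ripply2 and Hes7 had SOX17+/T+ second, but their SOX17+ and mESC levels were not called different (limma, adjusted p of 0.48, 0.77 and 0.14), and for the first 2 of them those libraries overlapped. Notch1 and Lfng were lowest in SOX17+, below mESC, and so were Mesp2 and Dll1, whose mean in mESC lay above that in SOX17+/T+, although for Dll1 and Lfng the SOX17+/T+ and mESC libraries overlapped.

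**Figure D1:**
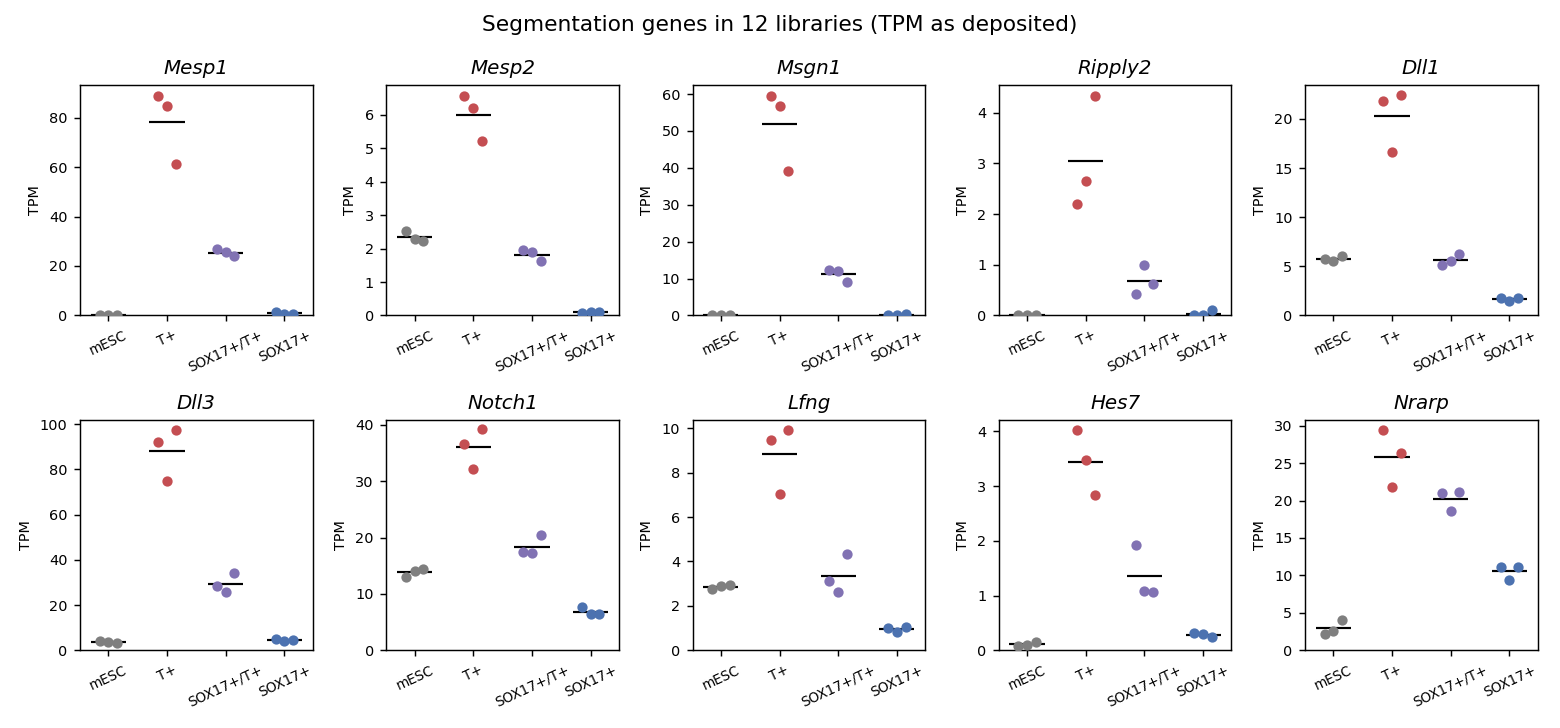
TPM of the 10 segmentation genes (y axis, linear, a separate scale for each gene) in the 12 libraries, by group (x axis). Points are libraries in the order of their replicate numbers and the bar is the mean of 3. In each panel the 3 T+ libraries lie above all others, and the level of mESC relative to SOX17+/T+ and SOX17+ differs between genes.

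Mesp1, a basic helix-loop-helix (bHLH) factor that marks the first mesoderm to leave the streak, including heart progenitors, lies at chr7:79792241-79793788 on the minus strand (GRCm38, as are all positions here; 2 exons). It measured 88.8, 84.7 and 61.2 TPM in the T+ libraries with replicate numbers 1, 2 and 3, 26.7, 25.7 and 23.9 in SOX17+/T+, 1.46, 0.719 and 0.641 in SOX17+, and 0.0792, 0.156 and 0 in mESC. No groups overlapped. The double-positive mean was 32.5% of the T+ mean, a difference of -1.57 ± 0.16 (limma, adjusted p = 1.2e-05), and the T+ mean was 83.2 times the SOX17+ mean (-5.36 ± 0.16, adjusted p = 4.3e-11). Mesp1 was the member with the largest rise from mESC to T+, 6.18 ± 0.16 (limma, adjusted p = 1.1e-12).

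Mesp2, the paralog that sets segment boundaries and the polarity of the somite, lies 16939 bases from Mesp1 on the opposite strand, at chr7:79810727-79813439 (2 exons). Its T+ libraries held 6.57, 6.20 and 5.23 TPM, its mESC libraries 2.51, 2.28 and 2.24, its SOX17+/T+ libraries 1.94, 1.89 and 1.62 and its SOX17+ libraries 0.0832, 0.107 and 0.0988. The neighbours therefore differed in the mESC libraries: Mesp1 was near 0 there and Mesp2 was not. Mesp2 was 1.06 ± 0.08 higher in T+ than in mESC (limma, adjusted p = 5.4e-08) and lower in SOX17+ than in mESC, by a difference of -1.61 ± 0.08 (adjusted p = 6.7e-10). Between SOX17+/T+ and mESC the libraries did not overlap and the difference was -0.25 ± 0.08 (limma, adjusted p = 0.016), a call that was lost when the columns were rescaled (-0.13, adjusted p = 0.17, with median-of-ratios scaling) or without SOX17+/T+ replicate 3 (adjusted p = 0.067) or mESC replicate 1 (adjusted p = 0.06). On the other side of Mesp2, 8364 bases away, Anpep, which encodes the surface peptidase CD13, was also lower in SOX17+ than in T+ (-1.76 ± 0.09, limma, adjusted p = 2.0e-09), with means of 31.9 TPM in T+, 20.8 in SOX17+/T+, 8.69 in SOX17+ and 12.7 in mESC.

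Msgn1 encodes mesogenin 1, a bHLH factor that drives cells into the presomitic state, and is a single-exon gene at chr12:11208360-11208972, minus strand. It stood at 59.5, 56.9 and 39.1 TPM in T+, 12.2, 12.1 and 9.07 in SOX17+/T+, 0.0624, 0.0528 and 0.524 in SOX17+ and 0, 0.226 and 0.0393 in mESC. The last 2 groups overlapped and did not differ beyond their spread (0.14 ± 0.18, limma, adjusted p = 0.48), and without SOX17+ replicate 3 that difference was -0.04. Of all 10 genes Msgn1 fell most from T+ to SOX17+/T+, by 2.11 ± 0.18 on the log2 scale (limma, adjusted p = 4.0e-06), and from T+ to SOX17+, by 5.44 ± 0.18 (adjusted p = 1.7e-10).

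Ripply2, whose protein recruits corepressors to T-box factors such as TBX6, lies at chr9:87015537-87019917, plus strand. It held 2.19, 2.64 and 4.33 TPM in T+ and 0.418, 0.991 and 0.624 in SOX17+/T+, and was listed at 0 in all mESC libraries and in 2 of 3 SOX17+ libraries, with 0.115 TPM in the third. Its T+ libraries alone carried it past the filter on low values, so that it had to differ from the rest, and an exact 0 in the table can be a failed estimate. For these reasons no fold is given against mESC. The SOX17+/T+ mean was 22.2% of the T+ mean, and no test of it is given.

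Dll1, the delta ligand that activates Notch on neighbouring cells of this tissue, lies at chr17:15367354-15376872, minus strand (11 exons). It measured 21.9, 16.7 and 22.4 TPM in T+, 5.16, 5.53 and 6.28 in SOX17+/T+, 1.74, 1.50 and 1.74 in SOX17+ and 5.71, 5.59 and 6.02 in mESC. Its double-positive and mESC libraries overlapped (-0.03 ± 0.10, limma, adjusted p = 0.8), and SOX17+ lay below both. Dll1 was thus 1.64 ± 0.10 higher in T+ than in mESC (limma, adjusted p = 3.9e-09) and differed by -1.35 ± 0.10 between SOX17+ and mESC (adjusted p = 3.1e-08).

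Dll3, a divergent delta protein that is held inside the cell and does not activate Notch on neighbours, lies at chr7:28293553-28302238, minus strand (9 exons). Its levels were 92.1, 75.0 and 97.3 TPM in T+, 28.6, 25.8 and 34.1 in SOX17+/T+, 4.89, 4.16 and 4.55 in SOX17+ and 4.05, 3.53 and 3.22 in mESC, the highest mean of the 10 genes in T+ and SOX17+/T+. The 4 groups did not overlap. Dll3 rose by 4.27 ± 0.11 from mESC to T+ (limma, adjusted p = 8.1e-13). Between SOX17+ and mESC it differed by 0.27 ± 0.11 (limma, adjusted p = 0.04), a call that was lost with no filter on low values (adjusted p = 0.088) and without mESC replicate 2 (0.087) or 3 (0.14) or SOX17+ replicate 1 (0.13) or 3 (0.08).

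Notch1, the receptor, lies at chr2:26457903-26516663, minus strand (34 exons), and had a level above 6 TPM in every library. It measured 36.6, 32.2 and 39.3 TPM in T+, 17.4, 17.2 and 20.5 in SOX17+/T+, 13.0, 14.1 and 14.5 in mESC and 7.62, 6.51 and 6.36 in SOX17+. All 4 groups were separate. The double-positive mean was 51.0% of the T+ mean (-0.94 ± 0.09, limma, adjusted p = 5.7e-06), and SOX17+ lay below mESC by a difference of -0.93 ± 0.09 (adjusted p = 3.9e-07).

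Lfng, the fringe glycosyltransferase that extends O-fucose on Notch and changes which ligands it answers to, lies at chr5:140607320-140615545, plus strand (8 exons). It stood at 9.48, 7.05 and 9.93 TPM in T+, 3.13, 2.62 and 4.33 in SOX17+/T+, 2.77, 2.88 and 2.94 in mESC and 1.00, 0.838 and 1.07 in SOX17+. As for Dll1, the double-positive and mESC libraries overlapped (0.16 ± 0.14, limma, adjusted p = 0.3). That difference was called after quantile normalization (0.45, limma, adjusted p = 0.007). SOX17+ lay below T+ by a difference of -2.31 ± 0.14 (limma, adjusted p = 1.4e-08).

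Hes7, the bHLH repressor whose negative feedback on its own promoter drives the clock, lies at chr11:69120404-69124055, plus strand (4 exons). It was less abundant than Lfng and Nrarp in every T+ library, with 4.02, 3.48 and 2.85 TPM in T+, 1.92, 1.09 and 1.07 in SOX17+/T+, 0.312, 0.291 and 0.235 in SOX17+ and 0.0802, 0.0975 and 0.144 in mESC. Its groups did not overlap. The SOX17+ minus mESC difference of 0.21 ± 0.13 was not called (limma, adjusted p = 0.14), but it was with a pseudocount of 0.1 (0.88, adjusted p = 0.003), after quantile normalization (0.46, adjusted p = 0.0042) and with only these groups in the fit (adjusted p = 0.025). Hes7 differed by -0.93 ± 0.13 between SOX17+/T+ and T+ (limma, adjusted p = 1.3e-04).

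Nrarp, a small ankyrin-repeat protein that is induced by Notch and destabilises the receptor's active fragment, is a single-exon gene at chr2:25180758-25183339, plus strand. It held 29.4, 21.8 and 26.4 TPM in T+, 21.0, 18.7 and 21.2 in SOX17+/T+, 11.2, 9.42 and 11.1 in SOX17+ and 2.17, 2.61 and 4.10 in mESC. It was the only member whose difference between SOX17+/T+ and T+ was not called (-0.33 ± 0.16, limma, adjusted p = 0.14), although the libraries did not overlap, and its adjusted p stayed between 0.056 and 0.37 under all 12 alternative settings. Nrarp was also the member that kept the highest share of its T+ level in SOX17+ (40.8%), where it was 1.57 ± 0.16 above mESC (limma, adjusted p = 9.1e-07).

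Opposite-strand genes overlap Dll1, Hes7, Notch1 and Nrarp, and the sources used here do not say whether the authors' quantification used strand. Their highest levels in any library were low: 0.053 TPM for the one at Dll1, 0.127 at Hes7, 0.701 at Notch1 and 0.639 at Nrarp.

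The counts of members can be set beside those of all tested genes. Ripply2 is left out here, so that the counts and medians are over the other 9. Calls of Mesp1, Msgn1 and Hes7 against mESC and SOX17+ are not free of the filter on low values. From mESC to T+, 9 of 9 members were called higher, where 34.5% of all genes were, and 9 of 9 were called higher with at least a 2-fold difference, where 10.4% of all genes were. The members' median difference was 2.00 and that of all genes was -0.17. From mESC to SOX17+/T+, 6 members were called higher and 1, Mesp2, lower, beside 34.9% and 50.3% of all genes, with medians of 1.07 and -0.19. From mESC to SOX17+, Mesp1, Dll3 and Nrarp were called higher and Mesp2, Dll1, Notch1 and Lfng lower, beside 35.4% and 50.0% of all genes. The 7 of 9 members called there are a lower share than that of all genes, and their median was 0.14 against -0.18.

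Values against mESC also carry the make-up of the undifferentiated libraries. The summed TPM of 10 fibroblast markers was 3526 to 4335 in mESC and 50.6 to 87.0 in the 9 sorted libraries, with S100a4 at 0 in all SOX17+/T+ and SOX17+ libraries. The summed TPM of 9 neural markers was 101 to 108 in mESC, most of it from Tubb3, a neuronal tubulin (89.9 to 95.7 TPM), with means of 6.64 for Pax6 and 3.42 for Sox1 and the other 6 under 1 TPM, and 1.35 to 3.44 in the sorted libraries. The part of these cells or genes in the Notch1, Lfng, Dll1 and Mesp2 levels of mESC was not tested.

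Between the sorted groups the background was smaller. Of all genes, 15.8% were called lower in SOX17+/T+ than in T+ and 0.733% were lower by at least 2-fold, against 8 and 6 of the 9 members, and the medians were -1.31 for the members and -0.03 for all genes. The members short of 2-fold on the log2(TPM + 1) scale were Notch1, Hes7 and Nrarp, although the mean TPM of Hes7 was 2.54 times as high in T+. From T+ to SOX17+, 29.0% of all genes were called lower and 3.70% by at least 2-fold, against 9 and 9 members, with medians of -2.67 and -0.03. From SOX17+/T+ to SOX17+, 16.8% of all genes were called lower and 1.10% by at least 2-fold, against 9 and 7 members, the rest being Hes7 and Nrarp, with medians of -1.32 and 0.00. These 3 comparisons share libraries pairwise. The scale understates Hes7 in the last of them too: its mean TPM in SOX17+/T+ was 4.86 times that in SOX17+. In the comparisons with SOX17+, calls of Mesp1, Msgn1 and Hes7 are not free of the filter on low values.

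**Figure D2:**
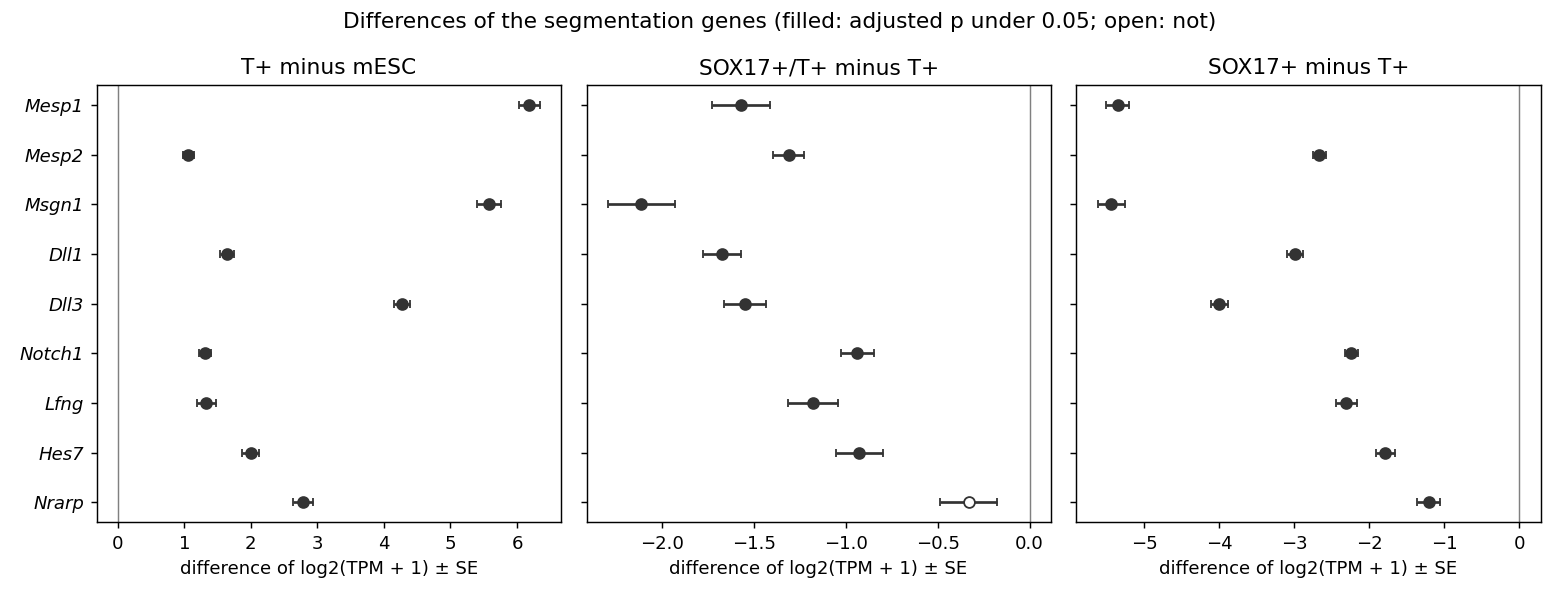
Differences of log2(TPM + 1) for 9 of the genes, without Ripply2 (x axis, ± standard error of the limma fit) from mESC to T+, from T+ to SOX17+/T+ and from T+ to SOX17+. Filled points are called and the open point is not: Nrarp between SOX17+/T+ and T+, at -0.33.

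The double-positive level was also compared with the midpoint of the T+ and SOX17+ means on the log2(TPM + 1) scale. Mesp1 lay 1.11 ± 0.14 above it (limma, adjusted p = 4.5e-04), Dll3 0.45 ± 0.10 (0.012) and Msgn1 0.61 ± 0.16 (0.032), and no member was called below it. That is 3 of 9 called higher, Ripply2 left out, beside 4.43% of all genes. The Msgn1 call was lost under 7 of the 15 alternatives, at adjusted p of 0.06 to 0.13, and the Dll3 call without SOX17+/T+ replicate 3 (0.052). Mesp2, at 0.03 ± 0.07 above the midpoint, was called with a pseudocount of 0.1 (0.81, limma, adjusted p = 0.0013). As a share of the distance from SOX17+ to T+, the 3 double-positive libraries averaged 70.8% ± 1.5 (SD, n = 3) for Mesp1, 72.8% ± 8.0 for Nrarp, 61.4% ± 4.9 for Dll3, 61.2% ± 4.1 for Msgn1 and 58.3% ± 5.9 for Notch1. They averaged 51.0% ± 3.4 for Mesp2, 48.9% ± 12.3 for Lfng, 48.3% ± 15.9 for Hes7, 44.2% ± 4.1 for Dll1 and 35.2% ± 12.8 for Ripply2. These shares are on the log2 scale and depend on the pseudocount. With 0.1 in place of 1, tried after seeing the data, they were 74.6% for Mesp1, 73.2% for Nrarp, 71.4% for Msgn1, 62.9% for Dll3 and 59.3% for Notch1. Mesp2 then stood at 66.4%, Hes7 at 59.1%, Ripply2 at 55.4%, Lfng at 54.7% and Dll1 at 48.4%, so that the order of the members changed.

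Ratios between members within a library show how the balance within these pairs of genes differed. The 4 ratios were chosen after the values were seen and are given without a test. Nrarp relative to Notch1 was 0.718 ± 0.075 (SD, n = 3) in T+, 1.11 ± 0.087 in SOX17+/T+, 1.55 ± 0.163 in SOX17+ and 0.212 ± 0.062 in mESC. No 2 groups overlapped, so that Nrarp transcripts were lowest relative to Notch1 transcripts in mESC and highest in SOX17+. Other receptors are not part of this ratio. In SOX17+ the means were 6.83 TPM for Notch1, 22.5 for Notch2 and 42.5 for Notch3. The Dll3 to Dll1 ratio was 4.35 ± 0.14 in T+, 5.22 ± 0.48 in SOX17+/T+, 2.73 ± 0.10 in SOX17+ and 0.625 ± 0.088 in mESC. The mESC libraries, which also carry RNA of fibroblast markers, were the only group with less Dll3 than Dll1. Lfng relative to Notch1 was 0.244 ± 0.021 in T+, 0.207 ± 0.006 in mESC, 0.181 ± 0.029 in SOX17+/T+ and 0.143 ± 0.022 in SOX17+, and the double-positive libraries overlapped both SOX17+ and mESC. Mesp1 relative to Mesp2 was 13.5, 13.6 and 11.7 in the T+ libraries, 13.7, 13.6 and 14.7 in SOX17+/T+, and 17.5, 6.75 and 6.48 in SOX17+, where Mesp2 was near 0.1 TPM. In mESC it did not exceed 0.0687. Of the 4 ratios, 3 moved beyond the spread of the libraries when 1 TPM was added to both genes. From T+ to SOX17+ and on the log2 scale, Lfng/Notch1 went from -0.78 to -0.07, Mesp1/Mesp2 from -0.50 to -2.69 and Dll3/Dll1 from -0.67 to -1.01, while Nrarp/Notch1 was 1.11 without and 1.03 with it.

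**Figure D3:**
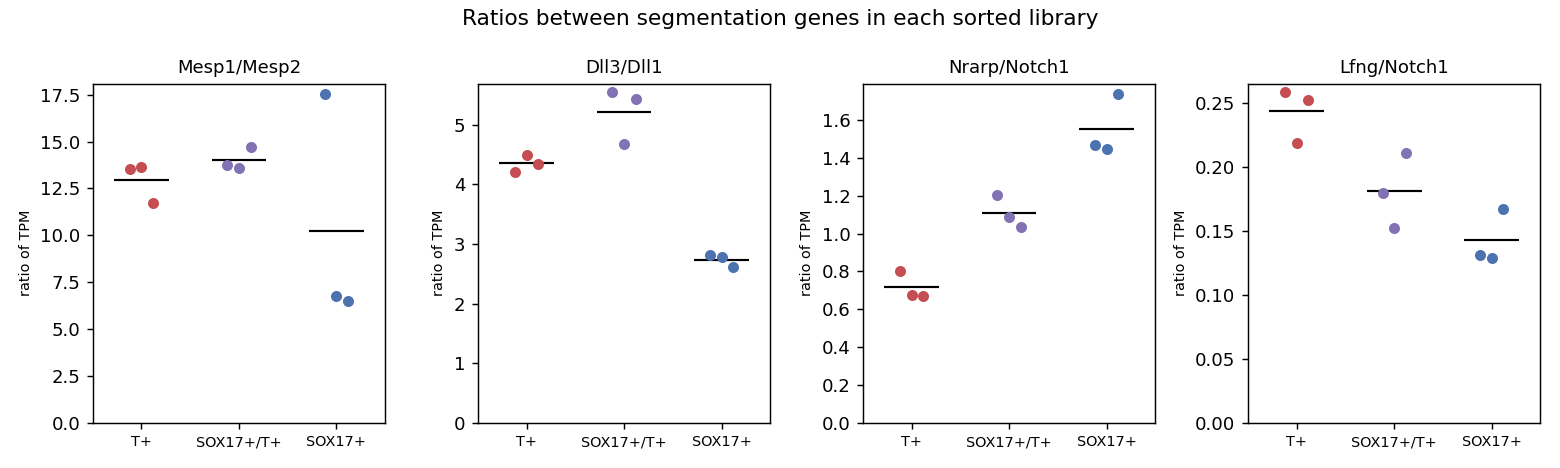
Ratio of the TPM of 2 members (y axis, from 0, a separate scale in each panel) in the 9 sorted libraries, by group (x axis). Points are libraries and bars are means of 3. Nrarp/Notch1 is lowest in T+ and highest in SOX17+, and Dll3/Dll1 is lowest in SOX17+.

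Within T+ and within SOX17+/T+ the members differed in which replicate was high and which was low. The sets given here were formed after the values were seen. Mesp1, Mesp2, Msgn1 and Hes7 were each highest in replicate 1 and lowest in replicate 3, in both groups. Dll3, Notch1 and Lfng were each lowest in replicate 2 and highest in replicate 3, in both groups, and T itself did the same. Dll1 had this order in T+ but was lowest in replicate 1 in SOX17+/T+. Nrarp was lowest in replicate 2 in both groups, and Ripply2 was lowest in replicate 1 in both. Msgn1, for example, was 39.1 TPM in T+ replicate 3, where Dll3 was 97.3, and 56.9 in replicate 2, where Dll3 was 75.0. The coefficient of variation over the 3 T+ libraries was 9.95% to 36.9% for the members. For 10 of 10 it was above the median of 5.41% over tested genes with a mean of at least 1 TPM in the group. In SOX17+/T+ it was 5.56% to 42.9%, above the median of 6.09% for 9 of 10. The spread of a gene may depend on its level, which was not tested. The replicate numbers of these groups go together across all genes, with correlations of 0.149 to 0.242 between same-numbered libraries after removal of the group means. The 2 groups are therefore not independent views of the pattern.

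**Figure D4:**
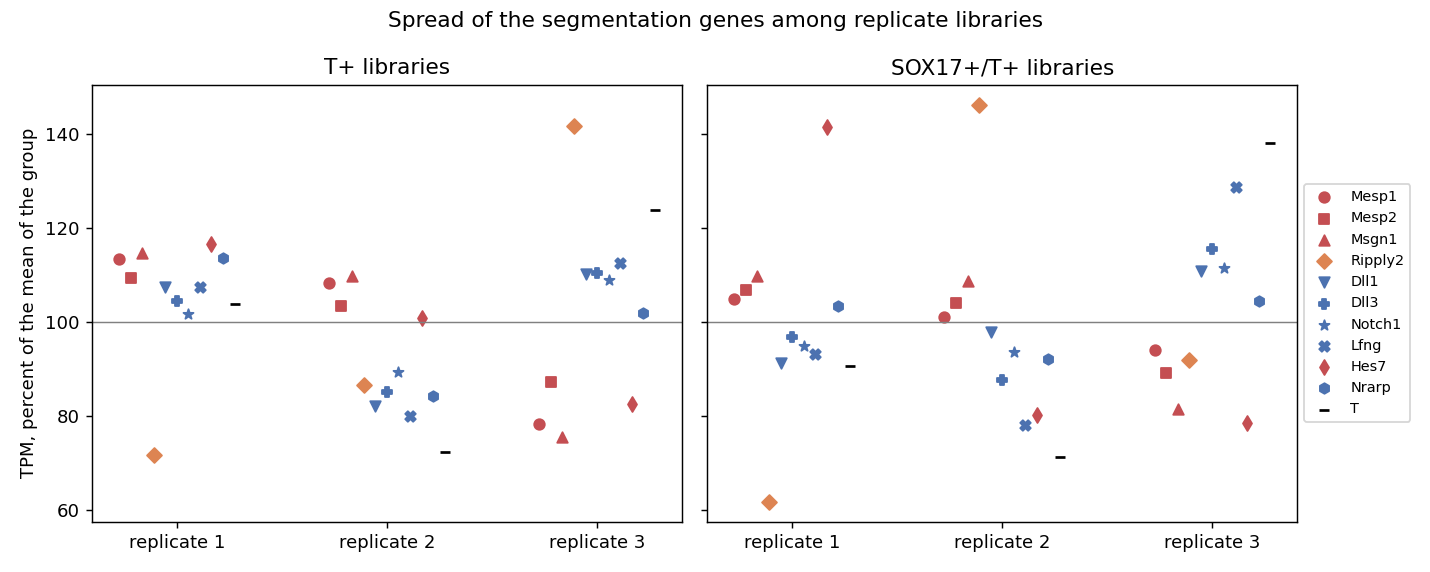
TPM of the 10 genes and of T in each T+ library (left) and SOX17+/T+ library (right), as a percent of the mean of the group (y axis; the line is at 100). Red marks the 4 genes that are lowest in replicate 3 of both groups, blue 5 further genes, orange Ripply2 and black T. The red and blue symbols lie on opposite sides of the line in replicate 3.

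Because these genes share a highest level in T+, the sequence before their RefSeq starts was read from RefSeq promoters (GRCm38.p6) to show which cores of clock regulators lie there. The table gave 11 promoters for the 10 genes, and the 250 bases before each start were searched on both strands. These windows are not all upstream of the genes as the deposited table places them. Of the 250 bases, 198 in the Mesp1 window and all 250 in the Dll3 and Notch1 windows and in 1 of the 2 Dll1 windows lie inside the gene's span there. GTGGGAA, the core bound by RBPJ, occurred in the windows of Msgn1, Lfng and Hes7, and in 5.42% of 32851 promoters of the table. CTTTGAT, a TCF/LEF core that answers to WNT, occurred in those of Mesp1 and Msgn1 (3.21% of all promoters), and TCACAC, a core bound by T-box factors, in those of Ripply2 and Dll3 (12.3%). CANNTG, the E-box of bHLH factors, occurred for 9 of 10 genes, all but Notch1 (66.2%), and CACNAG, the N-box of HES repressors, for 5 (36.7%). All matches of Mesp1 and Dll3 lie inside the gene's span. In Lfng the E-box CACGTG overlaps the RBPJ core, and in Hes7 the core runs into the E-box CATTTG. A match is a description of letters and not evidence of binding. The 5 promoters below hold those matches or, for Mesp2, show the paralog that differed from Mesp1 in the mESC libraries. They run 5′ to 3′ on the strand of the gene and stop before the gene's span in the deposited table. Capitals mark RBPJ, T-box, TCF/LEF and E-box matches.
Msgn1, chr12:11208973-11209198, minus strand: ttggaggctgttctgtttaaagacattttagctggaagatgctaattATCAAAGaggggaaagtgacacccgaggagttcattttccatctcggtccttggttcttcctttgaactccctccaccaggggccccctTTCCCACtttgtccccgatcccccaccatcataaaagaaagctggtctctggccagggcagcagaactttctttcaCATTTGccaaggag
Lfng, chr5:140607091-140607319, plus strand: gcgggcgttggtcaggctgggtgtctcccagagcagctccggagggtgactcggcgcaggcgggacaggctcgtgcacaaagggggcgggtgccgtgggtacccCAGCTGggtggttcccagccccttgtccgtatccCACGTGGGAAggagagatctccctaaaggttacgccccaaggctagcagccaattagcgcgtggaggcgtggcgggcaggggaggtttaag
Hes7, chr11:69120203-69120403, plus strand: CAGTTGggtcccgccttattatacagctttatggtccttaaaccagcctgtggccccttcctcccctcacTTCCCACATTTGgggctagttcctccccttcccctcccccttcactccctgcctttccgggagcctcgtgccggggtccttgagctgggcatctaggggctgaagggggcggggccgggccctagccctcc
Ripply2, chr9:87015287-87015536, plus strand: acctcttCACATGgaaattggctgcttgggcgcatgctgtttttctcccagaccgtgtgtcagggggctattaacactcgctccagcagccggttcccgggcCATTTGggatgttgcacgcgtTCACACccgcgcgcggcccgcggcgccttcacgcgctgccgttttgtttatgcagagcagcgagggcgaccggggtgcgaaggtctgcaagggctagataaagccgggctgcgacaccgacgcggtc
Mesp2, chr7:79810477-79810726, plus strand: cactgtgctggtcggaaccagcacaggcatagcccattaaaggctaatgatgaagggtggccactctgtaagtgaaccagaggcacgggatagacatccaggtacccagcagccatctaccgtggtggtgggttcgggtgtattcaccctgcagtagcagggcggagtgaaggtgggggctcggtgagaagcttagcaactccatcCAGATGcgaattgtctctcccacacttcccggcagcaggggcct

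Msgn1 carried the TCF/LEF match 203 bases and the RBPJ match 114 bases before its RefSeq start. The RBPJ match lay 109 bases before the start in Lfng and 180 in Hes7, and the T-box match of Ripply2 lay 127 bases before it. Among T+ replicates Msgn1 and Hes7 were lowest in replicate 3, where Lfng was highest. Whether these matches bear on the order of the replicates was not tested.

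The rest of the Notch pathway was called in both directions. Of 32 further pathway genes 30 were tested, and from T+ to SOX17+/T+ 5 were called higher (Mfng, Jag2, Hey1, Psen2 and, outside the naming rule, Ncstn) and 2 lower (Maml3 and, outside the rule, Maml2), beside 12.6% and 15.8% of all genes, with a median of 0.00. From T+ to SOX17+, 10 were called higher and 9 lower, beside 25.4% and 29.0% of all genes, with a median of -0.08. The fringe enzymes moved apart: Mfng, the manic fringe paralog of Lfng, was 0.531, 0.723 and 0.697 TPM in T+, 6.05, 4.78 and 6.18 in SOX17+/T+, 7.64, 5.82 and 6.04 in SOX17+ and 5.91, 4.86 and 5.03 in mESC. Mfng was lowest where Lfng was highest, and it was 2.01 ± 0.11 higher in SOX17+/T+ than in T+ (limma, adjusted p = 5.2e-08). The ligands did so too. Jag2, a ligand of the jagged class, was 2.88, 3.29 and 2.32 TPM in T+ and 6.59, 7.52 and 5.37 in SOX17+/T+ (0.97 ± 0.11, limma, adjusted p = 2.0e-05), with 7.45 ± 0.23 (SD, n = 3) in SOX17+. Jag1, in contrast, fell from T+ to SOX17+ by 0.77 ± 0.15 on the log2 scale (limma, adjusted p = 0.0011).

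Among receptors, Notch2 was 35.2 ± 3.8 TPM in T+ and 36.9 ± 3.6 in SOX17+/T+ (SD, n = 3), which were not called different (0.07 ± 0.09, limma, adjusted p = 0.59), and fell to 22.5 ± 1.9 in SOX17+ (-0.62 ± 0.09, adjusted p = 4.3e-05). Notch3, named after its values were seen, was 52.9 ± 3.5, 47.5 ± 2.8 and 42.5 ± 4.9 TPM in the same groups. Notch1 was thus the receptor with the largest difference between T+ and SOX17+ among these 3 (-2.24). Among targets, Hey1 was 29.1 ± 1.1 TPM in T+ and 42.7 ± 4.8 in SOX17+/T+, a rise of 0.53 ± 0.10 (limma, adjusted p = 0.0013), whereas Hes7 fell. Hes1, a repressor that is not restricted to the segmentation clock and was named after its values were seen, held 75.0 ± 9.9, 92.7 ± 19.1 and 90.2 ± 10.1 TPM in T+, SOX17+/T+ and SOX17+ and was called in neither comparison. Hey2 was 12.1 ± 1.7 TPM in T+ and 8.25 ± 0.48 in SOX17+. Rbpj itself, the DNA-binding partner of all Notch receptors, fell from 205 ± 3 TPM in mESC to 41.6 ± 1.2 in T+ and stood at 38.8 ± 0.5 in SOX17+/T+ and 37.4 ± 1.6 in SOX17+ (-0.15 ± 0.04 from T+ to SOX17+, limma, adjusted p = 0.0059). Maml3, a coactivator of the RBPJ complex, rose from 0.189 ± 0.047 TPM in mESC to 10.1 ± 0.2 in T+. Endothelium also uses Notch: the summed TPM of its 10 markers was 66.0 to 71.5 in T+, 76.9 to 80.4 in SOX17+/T+ and 117 to 128 in SOX17+, and its part in the pathway values was not tested. Most of the T+ sum came from Egfl7 (34.6 TPM) and Kdr (27.9). Of the 10 markers, 8 were called higher and 1 lower from T+ to SOX17+/T+ (median 0.92), beside 12.6% and 15.8% of all genes. From T+ to SOX17+, 8 were called higher, each by at least 2-fold, and 1 lower (median 2.05). Of all genes, 25.4% were called higher there, 4.95% higher by at least 2-fold and 29.0% lower. Cdh5, which encodes the endothelial cadherin, was 0.643, 4.99 and 15.5 TPM on average in T+, SOX17+/T+ and SOX17+.

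**Figure D5:**
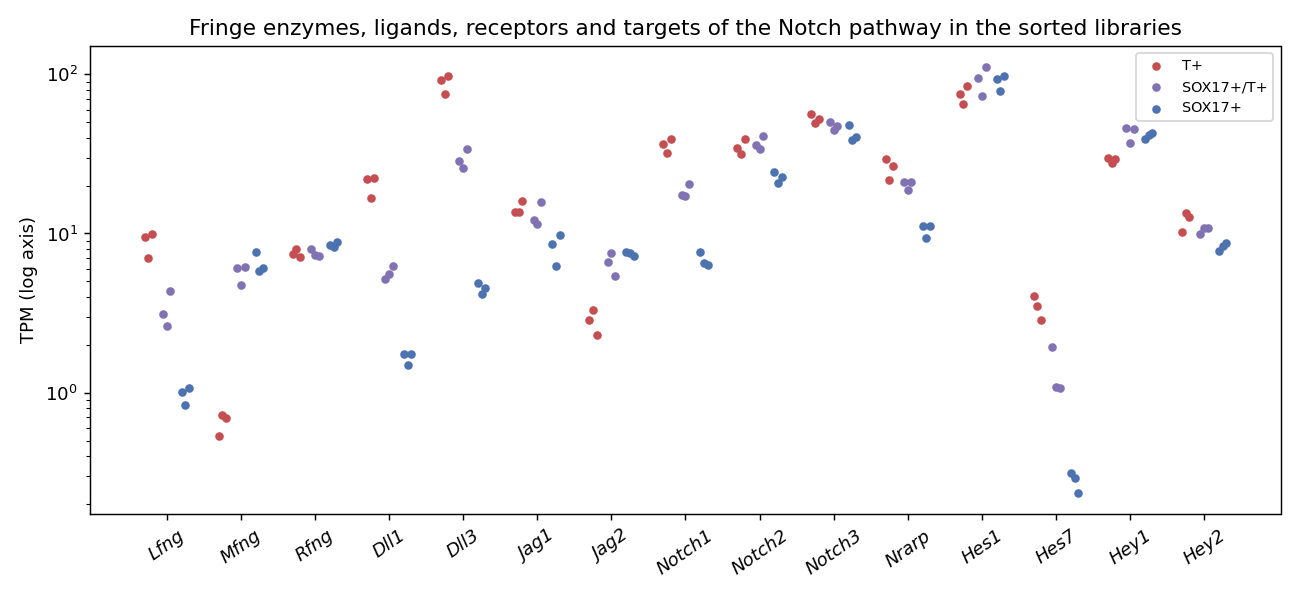
TPM (log axis) of fringe enzymes, ligands, receptors, Nrarp and bHLH targets of the Notch pathway in the 9 sorted libraries. Each point is a library, ordered by group within a gene (T+, SOX17+/T+, SOX17+). Lfng, Dll1, Dll3, Notch1 and Hes7 step down from T+ to SOX17+, Mfng and Jag2 step up, and Rfng and Hes1, included after their values were seen, stay within a narrow range.

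Other presomitic and somite boundary genes were called mostly in the direction of the members. Like the members, this list was chosen with earlier results of these data known, so that its counts are not an independent test. Of 12 such genes 10 were tested, and none was called higher and 7 lower from T+ to SOX17+/T+, each by at least 2-fold, beside 12.6% of all genes called higher, 15.8% lower and 0.733% lower by at least 2-fold, with a median of -1.15. From T+ to SOX17+, 1 (Epha4, 0.46 ± 0.05, named after its values were seen) was called higher and 7 lower, beside 25.4% and 29.0% of all genes. Tbx6, the T-box factor that acts with Notch on Mesp2, was 31.4, 22.6 and 21.7 TPM in T+, 6.49, 4.32 and 5.32 in SOX17+/T+, 0.782, 1.07 and 0.498 in SOX17+ and 0.134, 0.185 and 0.211 in mESC. Its double-positive mean was 21.3% of T+, near the 21.5% of Msgn1 and the 22.2% of Ripply2. Rspo3, a WNT enhancer, was 70.7 ± 4.3 TPM (SD, n = 3) in T+ and 32.1 ± 2.4 in SOX17+/T+, and Foxc1, a forkhead factor needed for somite formation, 17.2 ± 1.9 and 4.69 ± 0.50. Foxc2, Snai1, Meox1 and Tcf15 were the other 4 that fell in both comparisons. Tcf15, a bHLH factor of formed somites, differed from the members by its level in mESC, 94.7 ± 7.0 TPM against 4.13 ± 1.58 in T+.

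Of 14 genes of the WNT and FGF arm of the clock, all tested, 1 was called higher and 8 lower from T+ to SOX17+/T+, and 4 higher and 10 lower from T+ to SOX17+, with medians of -0.34 and -0.76. The 1 and the 4 called higher are near the shares of all genes, 12.6% and 25.4%, and the 8 and the 10 called lower lie above those of all genes, 15.8% and 29.0%. Both the 8 and the 10 include Wnt3a, which reached 1 TPM only in T+ and so had to differ. Dact1 fell from 36.4 ± 0.8 TPM (SD, n = 3) in T+ to 14.4 ± 0.9 in SOX17+/T+, and Lef1, a nuclear effector of WNT, from 78.9 ± 5.6 to 36.0 ± 1.0. Fgf8, the ligand of the posterior gradient, was 120 ± 19, 65.3 ± 9.8 and 12.4 ± 4.2 TPM from T+ through SOX17+/T+ to SOX17+. Its call between SOX17+/T+ and T+ (adjusted p = 0.014 in limma) was lost without T+ replicate 1 (0.051) or SOX17+/T+ replicate 2 (0.054). Inhibitors of WNT were called in both directions. Dkk1 was at 57.4, 52.0 and 73.2 TPM in T+, 87.3, 78.2 and 106 in SOX17+/T+ and 136, 130 and 138 in SOX17+, a rise from T+ to SOX17+ of 1.15 ± 0.13 (limma, adjusted p = 1.2e-05). Nkd1 rose from 49.2 ± 0.9 in T+ to 72.1 ± 4.0 in SOX17+ (0.54 ± 0.07, limma, adjusted p = 2.2e-05) and was not called between T+ and SOX17+/T+ (0.13 ± 0.07, adjusted p = 0.21). Axin2, a feedback inhibitor of WNT named after its values were seen, fell from 51.5 ± 1.4 TPM in T+ to 35.5 ± 3.2 in SOX17+ (-0.53 ± 0.06, limma, adjusted p = 4.7e-06). Dusp2, a phosphatase of the FGF feedback, was 2.42 ± 0.41 TPM in T+ and 6.75 ± 0.63 in SOX17+ (1.18 ± 0.11, limma, adjusted p = 8.3e-07).

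The genes most like each member were found by giving the 4 group means of a gene as percent of its own highest mean and taking the largest difference from the member over the 4 groups, among 9228 genes with a group mean of at least 10 TPM. Predicted genes and RIKEN clones were not among them, and members were not compared with each other. Closest to Mesp1 were Ptgds, a prostaglandin D synthase, at a largest difference of 1.80 percentage points, and T itself at 2.41. Msgn1 and Ripply2 had the same nearest genes, Aldh1a2, which makes retinoic acid in mesoderm (1.21 and 1.15 points), and Tbx6 (2.69 and 1.84). Dll1 was closest to Gna14 (1.76), Dll3 to Doc2g (2.84) and T (3.58), Hes7 to Gfra2 (4.03) and Nrarp to Grrp1 (3.72) and Fgf15 (3.92). Lfng was closest to Snai1 (6.05), Notch1 to Abhd11os (5.52) and Mesp2 to Cntfr (12.1), and these 3 members had no gene within 5 points. Mesp2 was thus the member whose profile over the 4 groups was least like that of another of the genes compared. It held 39.0% of its T+ level in mESC, 30.3% in SOX17+/T+ and 1.60% in SOX17+. Foxc2, too low to be compared, was closer to it, with 46.1%, 27.8% and 4.15%.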

How the data were processed

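RNA of 12 libraries, 3 for each of 4 groups, was measured by stranded RNA sequencing with 100 bp paired-end reads, per the labels' protocols. Cutadapt, STAR and StringTie are named without versions, with the builds mm10 and GRCm38, per the submitters' processing notes. The sources used here name no annotation release and no filter. The values are TPM, scaled by the authors to an equal total in each library, and were deposited as 1 table. A count test was not run, since counts were not part of the analysis. In the table's 54480 rows, 282 empty cells were set to 0 and rows were summed per gene identifier (54446 genes). Values were taken as log2(TPM + 1), genes with at least 1 TPM in at least 3 libraries were kept, and limma 3.58.1 in R 4.3.3 fitted 1 mean per group to all 12 libraries (eBayes with trend and robust, 8 residual degrees of freedom), followed by 7 contrasts, with 2-sided p-values adjusted by Benjamini-Hochberg over 16097 genes. The fit was tested on simulated data.

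The members and lists were chosen with earlier results of these data known. Named genes are all members, T, Sox17 and Tbx6, from each list up to 6 called genes with the largest absolute difference between sorted groups and up to 4 between T+ and mESC, and the genes most like each member. Genes named outside this rule are marked as such. Exon numbers come from GENCODE M21, which holds 97.8% of the table's identifiers in the same version. Same-numbered T+ and SOX17+/T+ libraries correlated at r = 0.204, 0.149 and 0.242 after removal of group means. All 3 lay above the threshold of 0.1, so the numbers pair these groups. Between SOX17+/T+ and SOX17+ the values were 0.0463, 0.178 and 0.224, with 2 above the threshold. No other pair of groups had more than 1 above it. Alternatives were a pseudocount of 0.1, no filter, median-of-ratios scaling, quantile normalization, only the groups compared, a replicate block and each library left out. For the ratios, adding 1 TPM and leaving out libraries, and for the positions a pseudocount of 0.1, were chosen after seeing the data.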

Additional observations from a re-analysis of the deposited data

How the results depend on the processing

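Of 70 member differences, 404 of 420 values under alternatives other than a left-out library and 427 of 450 with 1 library left out kept their direction and their side of the threshold. These values include those of Ripply2. With the replicate block, no call of a member changed. The number of members called, Ripply2 left out, stayed at 9 from mESC to T+, 8 from T+ to SOX17+/T+ and 9 from T+ to SOX17+.

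With a pseudocount of 0.1, the members called with at least a 2-fold difference between SOX17+ and mESC were 6 in place of 3, with Lfng, Mesp1 and Notch1 added. Values that changed sign were all uncalled under the alternative. Between SOX17+/T+ and mESC, Mesp2 was at 0.080 after quantile normalization, and Dll1 at 0.12 with median-of-ratios scaling and 0.17 after quantile normalization. The median of all genes against mESC moved with these scalings, from -0.17 as deposited to -0.04 and 0.07 in T+. Relative to the midpoint and with a pseudocount of 0.1, Ripply2 was at 0.25, Lfng at 0.14 and Hes7 at 0.29. With 1 library left out, Dll1 ranged from -0.094 to 0.026 between SOX17+/T+ and mESC, and between SOX17+ and mESC Msgn1 ranged from -0.036 to 0.231 and Ripply2 from 0.00 to 0.078. Relative to the midpoint, Mesp2 ranged from -0.015 to 0.078, Lfng from -0.178 to 0.10 and Hes7 from -0.195 to 0.055. The cause of these changes was not tested. Depth per library is unknown, so levels near 0, such as Ripply2 and Msgn1 in mESC and SOX17+ and Mesp2 in SOX17+, cannot be ranked among themselves.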
